A study of Mus musculus with 2 samples.

Results

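Genes of cholesterol synthesis and of its control by the sterol regulatory element-binding proteins (SREBPs) were followed in mouse mesenteric arteries that were depolarized with a high K+ solution. The genes were a list of 8 symbols: the enzyme genes Hmgcs1, Idi1, Fdft1, Sqle and Lss, the retention gene Insig1, and the SREBP genes Srebf1 and Srebf2. Each symbol was looked up among the 55573 Ensembl genes of the deposited tables, and 7 of the 8 were matched to 1 gene each. Hmgcs1, the gene of the cytosolic HMG-CoA synthase, was paired with no identifier in the symbol tables used here, and its expression was not analysed here. All 7 matched genes had at least 10 reads over the libraries together, the minimum used throughout.

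The study sequenced polyadenylated RNA from mesenteric arteries of wild type C57BL/6 mice aged 10 weeks, to find genes that membrane depolarization induces. There was 1 control library, from arteries in 5 mM K+ solution, and 1 depolarized library, from arteries in 60 mM K+ solution, and the labels give 60 min for both. Each library pooled tissue from 2 mice. According to the methods of the study, the solutions contained tetrodotoxin to silence the autonomic nerves, and connective tissue was removed before the arteries were frozen. The main text of the study describes perfusion with either solution. The supplementary methods describe control tissue as taken from the distal side of the ligated artery, after incubation without perfusion. The rest was then perfused with 60 mM K+. If that holds for these libraries, artery segment, perfusion and time in solution cannot be told apart from K+. Both libraries might then also hold tissue of the same mice.

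Cholesterol is built from acetyl-CoA through mevalonate, the isoprenoid units and squalene, and then through a series of sterols that begins with lanosterol. The SREBPs are transcription factors made as precursors in the membrane of the endoplasmic reticulum, where SCAP holds them and the INSIG proteins keep the complex in place while sterols are plentiful. When sterols run low, the complex travels to the Golgi apparatus, the proteases encoded by Mbtps1 and Mbtps2 cut the precursors, and the freed domains enter the nucleus and act on sterol regulatory elements. SREBP-2 acts mainly on cholesterol synthesis and uptake, and SREBP-1 mainly on fatty acid synthesis. In smooth muscle, cholesterol is also a building material of caveolae, the membrane pits in which the study placed its calcium signaling complex.

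The control library held 10480918 reads on genes and the depolarized library 11289598, and 14829 genes passed the minimum of 10. Levels in counts per 1000000 reads (CPM) and log2 fold changes, always 60 mM K+ over 5 mM K+, were scaled by TMM (trimmed mean of M-values) factors from edgeR. Since each condition had a single library, nothing could be checked against replicates and no p-values were computed. Intervals at the 95% level are exact (Poisson for a level, Clopper-Pearson for a log2 fold change) and cover counting error only. Scaling by total reads instead lowers every log2 fold change by 0.21 and takes the median over all genes from -0.0047 to -0.21, which matters for values near 0. Defining smooth muscle genes were abundant in both libraries, with Acta2 at 16614 and 19023 CPM and Myh11 at 13672 and 14130 CPM. Tagln, also a smooth muscle gene, was listed at only 27.9 and 36.8 CPM. Fibroblast, endothelial, macrophage, adipocyte and Schwann cell genes were also detected, whereas all 6 hepatocyte markers had 0 reads in both libraries, which does not exclude a low level. In such bulk tissue, fewer cells of a type and less RNA per cell cannot be told apart.

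The promoters of the listed genes were read first, because the SREBPs act through short DNA motifs near gene starts, together with the factors NF-Y and Sp1. The RefSeq promoter table (build GRCm38.p6, from 250 bases before to 50 bases after a start) held windows for 6 of the 8 genes and none for Sqle and Fdft1. Shown here are Hmgcs1, the 1 listed gene with an exact sterol regulatory element, Insig1 and Idi1, which were highest in the depolarized library relative to the control, and Lss, which was lowest. Capitals mark exact matches on either strand to the sterol regulatory element TCACNCCAC, the E-box CACGTG, the NF-Y box CCAAT and the GC box GGGCGG of Sp1. All 4 genes lie on the plus strand. The windows are chr13:119690101-119690400 for Hmgcs1, chr5:28071162-28071461 for Insig1, chr13:8885356-8885655 for Idi1 and chr10:76531355-76531654 for Lss.
Hmgcs1: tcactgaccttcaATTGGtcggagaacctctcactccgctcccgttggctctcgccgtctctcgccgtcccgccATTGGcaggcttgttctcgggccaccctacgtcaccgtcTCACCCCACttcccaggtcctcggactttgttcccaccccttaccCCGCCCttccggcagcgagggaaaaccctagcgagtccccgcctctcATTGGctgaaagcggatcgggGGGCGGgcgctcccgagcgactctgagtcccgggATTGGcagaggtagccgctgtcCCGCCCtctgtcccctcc
Insig1: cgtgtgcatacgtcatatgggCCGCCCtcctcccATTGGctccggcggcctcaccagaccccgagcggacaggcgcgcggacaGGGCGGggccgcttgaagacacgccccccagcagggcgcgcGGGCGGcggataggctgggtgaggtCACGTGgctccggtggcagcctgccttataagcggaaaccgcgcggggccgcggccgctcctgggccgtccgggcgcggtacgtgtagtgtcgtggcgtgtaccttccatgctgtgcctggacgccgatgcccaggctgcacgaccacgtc
Idi1: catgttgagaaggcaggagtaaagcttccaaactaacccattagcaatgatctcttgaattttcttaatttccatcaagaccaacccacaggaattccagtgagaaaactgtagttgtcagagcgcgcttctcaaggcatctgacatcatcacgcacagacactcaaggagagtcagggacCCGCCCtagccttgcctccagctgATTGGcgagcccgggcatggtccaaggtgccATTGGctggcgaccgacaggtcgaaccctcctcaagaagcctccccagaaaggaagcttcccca
Lss: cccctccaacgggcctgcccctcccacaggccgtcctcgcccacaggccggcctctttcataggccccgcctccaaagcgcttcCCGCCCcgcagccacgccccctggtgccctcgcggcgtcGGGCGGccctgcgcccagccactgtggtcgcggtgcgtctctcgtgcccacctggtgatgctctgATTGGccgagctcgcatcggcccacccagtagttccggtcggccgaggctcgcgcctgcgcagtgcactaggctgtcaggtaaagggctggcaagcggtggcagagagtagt

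The sterol regulatory element of Hmgcs1 began 137 bases before the start. A gene was counted when any of its windows held a match, and this element was found in 1 of the 6 genes and in 1.44% of all 27025 genes of the table. Insig1 carried the only E-box of the 6 genes, beginning 101 bases before its start, and 8.09% of all genes held one. An NF-Y box was present in 6 of 6 genes, against 41.1% of all genes, and a GC box also in 6 of 6, against 38.2%. Related genes shared these boxes. The NF-Y box was in 15 of 16 sterol synthesis enzymes, 5 of 10 genes of SREBP processing and 5 of 6 of sterol uptake. The GC box was in 15 of 16, 9 of 10 and 6 of 6, and the first 2 lists include listed genes. Within the 150 bases before the start, an NF-Y box was in 5 of the 6 listed genes, against 27.7% of all genes. Srebf1, with 3 windows, and Srebf2 were among them. The full CRE, TGACGTCA, the site of the factor CREB that the study followed, was in 0 of the 6 genes and in 2.03% of all genes. Its core TGACG, which the full site contains and which is not in capitals above, was in Hmgcs1, Insig1 and Srebf2, 3 of the 6 genes, and in 23.0% of all genes. A match describes these letters only, and their absence says nothing of the factor.

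**Figure D1:**
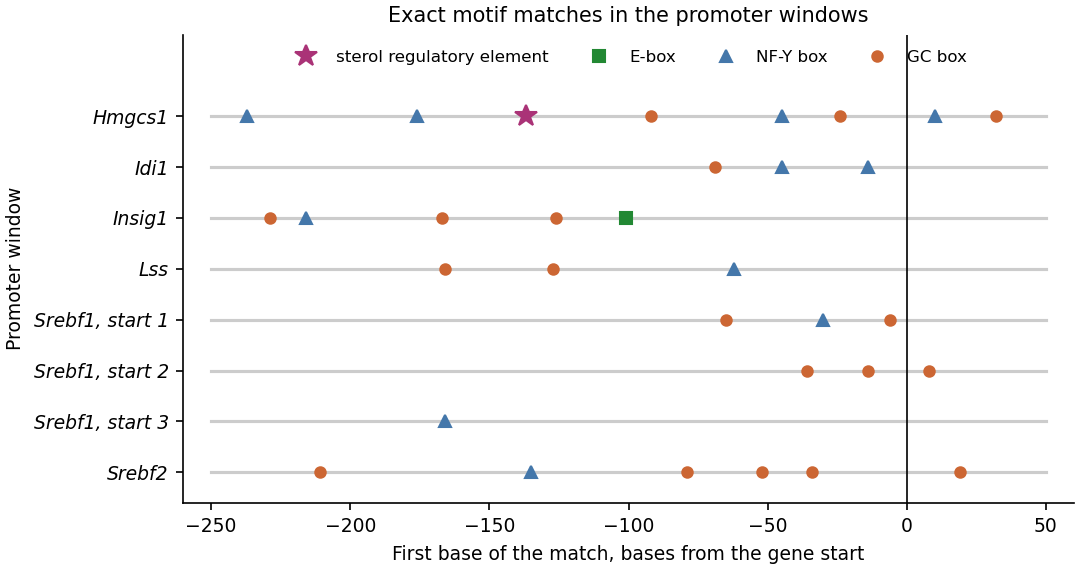
Exact motif matches in the promoter windows of the 6 listed genes with a RefSeq window; the x axis gives the first base of each match in bases from the gene start and each line is 1 window, from 250 bases before to 50 bases after. Hmgcs1 has the star of the sterol regulatory element 137 bases before its start, Insig1 the E-box square at 101 bases, and each of the 6 genes has an NF-Y triangle and a GC box dot in at least 1 window.

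The SREBP genes themselves were the most abundant of the list and differed little between the libraries. Srebf2 (ENSMUSG00000022463; mm9 chromosome 15, 81977696 to 82035806, plus strand), which encodes SREBP-2 and carries the microRNA gene Mir33 in an intron, had 1201 control reads and 1297 depolarized reads. These were 106.6 CPM (interval 100.7 to 112.8) and 123.5 CPM (116.9 to 130.4), a log2 fold change of 0.21 (0.10 to 0.33). Srebf1 (ENSMUSG00000020538; chromosome 11, 60012591 to 60036083, minus strand), which encodes the SREBP-1 forms, had 744 and 801 reads. Its level was 66.0 CPM (61.4 to 71.0) in the control and 76.3 CPM (71.1 to 81.7) after depolarization, and the log2 fold change was again 0.21 (0.06 to 0.35). Both genes were thus slightly higher in 60 mM K+ with TMM scaling, and with total-read scaling both differences went to 0, at 0.0037 for Srebf2 and -0.00073 for Srebf1. Exons of Srebf1 overlap exons of Rai1 in the annotation, and how reads in the overlap were counted was not given in the sources used here. The SREBP-1 forms come from different starts of Srebf1, and reads counted per gene do not separate them.

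Insig1 (ENSMUSG00000045294; chromosome 5, 28397952 to 28405201, plus strand) showed the largest difference of the 7 genes. It encodes the membrane protein that retains the SCAP and SREBP complex, and it is itself a well-known SREBP target. The control held 291 Insig1 reads and the depolarized library 542, or 25.8 CPM (22.9 to 29.0) and 51.6 CPM (47.4 to 56.1). The intervals of the levels did not overlap. The ratio of 60 mM K+ to 5 mM K+ had an interval of 1.73 to 2.31, and its log2 fold change of 0.999 lay just under the threshold of 1 used in the study. With total-read scaling it was 0.79. Insig2, its paralog, which is known for a control that does not depend on the SREBPs in the same way, had 599 and 673 reads. Its log2 fold change of 0.27 (0.11 to 0.43) was below that of Insig1 with no overlap of the counting intervals.

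Of the enzyme genes, Idi1 was the clearest. It encodes isopentenyl-diphosphate isomerase, which interconverts the isoprenoid units from which squalene is assembled. Idi1 (ENSMUSG00000058258; chromosome 13, 8884852 to 8891641, plus strand) had 171 control reads and 291 depolarized reads, or 15.2 CPM (13.0 to 17.6) and 27.7 CPM (24.6 to 31.1). The intervals of the levels again lay apart, and the log2 fold change was 0.87 (0.59 to 1.15), or 0.66 with total-read scaling.

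Fdft1 encodes squalene synthase, which makes squalene from farnesyl diphosphate and so commits the route to sterols. Fdft1 (ENSMUSG00000021273; chromosome 14, 63763990 to 63796630, minus strand) had 152 and 200 reads, or 13.5 CPM (11.4 to 15.8) and 19.0 CPM (16.5 to 21.9). Its log2 fold change of 0.50 (0.19 to 0.81) was smaller than that of Idi1, with overlapping intervals, and was 0.29 with total-read scaling, where the interval took in 0. Exons of Fdft1 overlap exons of Ctsb, the gene of the abundant protease cathepsin B, in the annotation.

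The 2 enzyme genes after squalene did not share this direction beyond counting error. Sqle (ENSMUSG00000022351; chromosome 15, 59146632 to 59162747, plus strand), which encodes squalene epoxidase, a rate-limiting enzyme of the sterol part of the route, had 151 and 170 reads. Its level was 13.4 CPM (11.3 to 15.7) in the control and 16.2 CPM (13.8 to 18.8) in the depolarized library, with overlapping intervals and a log2 fold change of 0.27 (-0.05 to 0.60). Lss (ENSMUSG00000033105; chromosome 10, 75994333 to 76019883, plus strand), which encodes lanosterol synthase and closes the first sterol ring system, was the 1 gene of the 7 with a lower value in 60 mM K+. It had 153 and 112 reads, or 13.6 CPM (11.5 to 15.9) and 10.7 CPM (8.78 to 12.8), a log2 fold change of -0.35 (-0.71 to 0.01). With total-read scaling the value of Lss was -0.56 and its counting interval lay below 0. Exons of Lss overlap exons of 4930483K19Rik in the annotation.

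**Figure D2:**
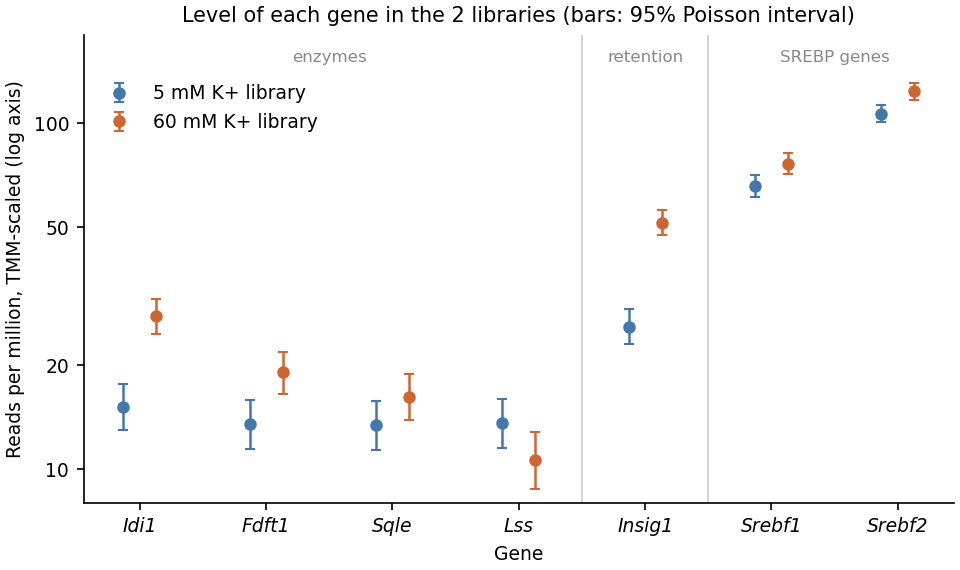
Level of each of the 7 matched genes in TMM-scaled CPM (log axis) in the 5 mM K+ library (blue) and the 60 mM K+ library (orange); bars are 95% Poisson intervals of the single library. Insig1 and Idi1 stand farthest apart between the libraries, at 25.8 and 51.6 CPM and at 15.2 and 27.7 CPM. The intervals of Fdft1, Srebf1 and Srebf2 also do not overlap, though they lie close, while those of Sqle and Lss overlap.

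**Figure D3:**
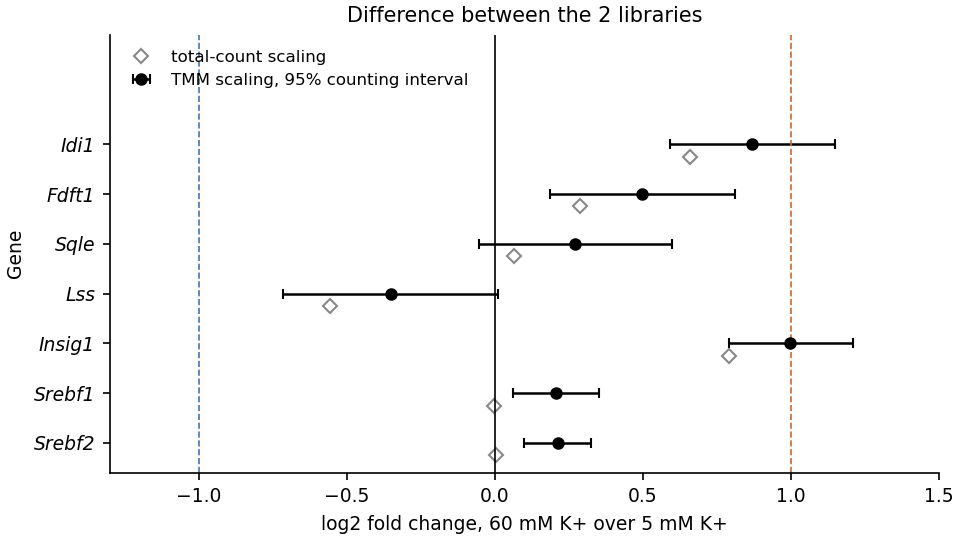
The log2 fold change of each gene (60 mM K+ over 5 mM K+) with TMM scaling (black points, bars are 95% counting intervals) and with total-read scaling (open diamonds); dashed lines mark 1 and -1. Insig1 at 0.999 and Idi1 at 0.87 lie farthest right and Lss at -0.35 farthest left, and every diamond lies 0.21 to the left of its point.

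Read as a list, the 7 genes had a median log2 fold change of 0.27, beside -0.0047 for all 14829 genes. No gene of the 7 was above a log2 fold change of 1, a size that 5.54% of all genes passed, and no gene was below -1, which 5.86% passed. At a difference of at least 1.5-fold, 2 of 7 genes, Insig1 and Idi1, were higher in 60 mM K+ (11.9% of all genes), and 0 of 7 were lower (13.1%). The counting interval lay above 0 for 5 of 7 genes, all but Sqle and Lss, compared with 25.0% of all genes. It lay below 0 for 0 of 7, compared with 20.3%. With total-read scaling, the interval lay above 0 for 2 of 7 genes (13.6% of all genes), again Insig1 and Idi1, and below 0 for 1 of 7, Lss (38.4%). The genes were proposed with earlier results of these libraries known, so that these counts describe the list and do not test it.

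Markers of other cells also differed between the libraries. Values here use TMM scaling unless stated, with which the summed reads of all genes gave a log2 fold change of 0.21. Endothelial markers summed to 3147 CPM in the control and 4278 CPM in the depolarized library, and the counting interval lay above 0 for 6 of 8 of them (25.0% of all genes). The other endothelial markers were lower, Kdr at -1.10 (-1.52 to -0.70) and Emcn, with 21 and 11 reads, at -0.83 (-2.03 to 0.29). Smooth muscle markers summed to 38647 and 42366 CPM, with 6 of 8 intervals above 0 and 2 below. Their summed log2 fold change was 0.13, or -0.076 with total-read scaling. Fibroblast markers summed to 7257 and 6002 CPM, with 1 of 7 intervals above 0 and 6 below (25.0% and 20.3% of all genes). For the 8 adipocyte markers, the sum was 101.4 CPM in the control and 51.7 CPM in the depolarized library. Macrophage markers summed to 47.8 and 43.0 CPM, a log2 fold change of -0.15 (-0.33 to 0.03), or -0.36 (-0.54 to -0.18) with total-read scaling. Of their 8 intervals, 1 lay above 0 and 2 below. Schwann cell and nerve markers summed to 376.2 and 445.5 CPM, with 3 of 8 intervals above 0 and 3 below. Their summed log2 fold change of 0.24 (0.18 to 0.30) was 0.035 (-0.025 to 0.096) with total-read scaling. Of 9 pancreas and intestine markers, 3 had 0 reads in both libraries, and the sum was 29.7 and 48.3 CPM. The 6 measured ones had a median log2 fold change of 1.67 and 3 were above 1, with Pnlip at 2 and 61 reads, Cela2a at 3 and 51 and Ctrb1 at 21 and 129, while Lgals4 was lower at 204 and 118 reads. The part of these cells in the differences of Insig1, Idi1 and the other genes was not tested.

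The levels of the genes relative to each other need a value per length, for which the deposited FPKM (reads scaled by gene length and by total reads) was used. In the control library the order was Srebf2 at 50.7 FPKM, Srebf1 at 48.4, Insig1 at 16.1, Idi1 at 13.9, Fdft1 at 6.54, Lss at 5.25 and Sqle at 5.18. Srebf2 and Srebf1 did not differ beyond their counting intervals, nor did Insig1 and Idi1, nor neighbors among Fdft1, Lss and Sqle. In the depolarized library the FPKM were 50.8 for Srebf2, 48.4 for Srebf1, 27.8 for Insig1, 22.0 for Idi1, 7.99 for Fdft1, 5.41 for Sqle and 3.57 for Lss. There, Srebf2 and Srebf1 were the 1 pair of neighbors whose intervals overlapped, and Sqle and Lss had changed places. Among the 14829 genes, Srebf2 exceeded 84.9% in the control library, whereas Sqle exceeded 36.8%. Insig1 moved most in this ranking, from above 60.4% of the genes in the control to above 75.0% after depolarization. The gene length behind the FPKM was 25.8% to 77.5% of the length of all annotated exons of these genes, and a length of all exons raises the ratio of Srebf2 to Srebf1 from 1.05 to 1.82 in the control library. With that length, Insig1 stood above Srebf1 in the depolarized library, and Sqle above Lss in both.

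The list holds a few steps of a longer route, and 20 of 21 genes of sterol synthesis enzymes, the matched members included, could be measured. Their median log2 fold change was 0.39, and 15 were higher and 5 lower in the depolarized library. Above a log2 fold change of 1 were 4 of 20 genes, beside 5.54% of all genes, and 1 of 20 was below -1, beside 5.86%. Of these 4, the genes from Mvk to Mvd act one after the other in the mevalonate stage. Mvk, mevalonate kinase, had 194 and 543 reads, with a log2 fold change of 1.59 (1.35 to 1.83). The next enzyme, phosphomevalonate kinase, is encoded by Pmvk, with 655 and 1242 reads and a value of 1.02 (0.89 to 1.16). Mvd, which encodes mevalonate diphosphate decarboxylase and supplies the substrate of Idi1, had 40 and 91 reads and a value of 1.29 (0.74 to 1.86). The fourth gene was Hsd17b7, an enzyme of the later sterol steps, with 82 and 218 reads and a value of 1.51 (1.14 to 1.90).

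The gene below -1 was Fdps, farnesyl diphosphate synthase, at -1.07, but it had only 9 and 4 reads and its interval ran from -3.22 to 0.77. The 8 measured enzymes up to squalene had a median log2 fold change of 0.70, and their summed reads were 1641 and 2851, a log2 fold change of 0.90 (0.81 to 0.99). Without Pmvk, which gave the most reads, the summed value was 0.81 (0.69 to 0.92). Summed over all 14829 genes, the log2 fold change was 0.21 with TMM scaling and 0.00039 with total-read scaling. For the 12 enzymes from squalene onward the median was 0.26, and the sum of 1894 and 2015 reads gave 0.19 (0.10 to 0.28), near that of all genes. Without Lbr, a sterol reductase gene that gave the most reads of these (465 and 332, at -0.38), the summed value was 0.34 (0.23 to 0.44). With total-read scaling the later sum was -0.018 (-0.11 to 0.07), taking in 0, and the earlier sum 0.69 (0.60 to 0.78). The division at squalene, and the naming of Lbr, were chosen after the values were seen. Sqle and Lss belong to the later steps, and Idi1 and Fdft1 to the earlier ones. With total-read scaling Pmvk was at 0.82, below 1, and the other 3 genes stayed above it.

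**Figure D4:**
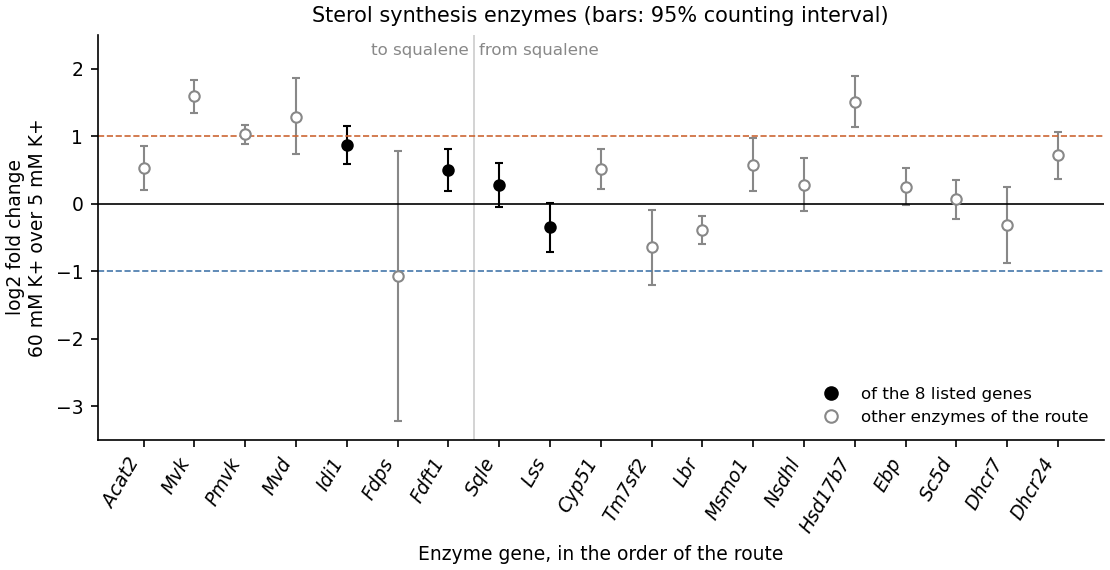
The log2 fold change (60 mM K+ over 5 mM K+, TMM scaling) of measured sterol synthesis enzymes in the order of the route (1 of the 20 is not shown), with 95% counting intervals; filled points are genes of the list of 8. Mvk, Pmvk, Mvd and Hsd17b7 lie above the dashed line at 1, and the wide bar is Fdps with 9 and 4 reads.

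Genes that hold, cut and degrade the SREBP complex were measured for 13 of 13 symbols, with a median log2 fold change of 0.14 that became -0.07 with total-read scaling. None was above 1 or below -1, beside 5.54% and 5.86% of all genes, and Insig1 was the highest. Scap, the escort protein of the SREBPs, had 450 and 401 reads, a log2 fold change of -0.06 (-0.26 to 0.13). The lowest was Erlin1 with 134 and 81 reads, at -0.62 (-1.04 to -0.22), a gene of an endoplasmic reticulum membrane complex. The protease genes were at -0.11 (-0.22 to -0.01) for Mbtps1 and -0.48 (-0.86 to -0.10) for Mbtps2. Counting intervals lay above 0 for 6 of 13 genes and below 0 for 4, beside 25.0% and 20.3% of all genes. Exons of Scap overlap those of 5830462I19Rik in the annotation, and exons of Mbtps2 those of Yy2.

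Among 13 genes of sterol uptake and intracellular transport the median was -0.03, and 0 were above 1 or below -1 (5.54% and 5.86% of all genes). The highest was Gramd1a, a sterol transfer protein of the endoplasmic reticulum, with 715 and 1153 reads, at 0.79 (0.65 to 0.93). The lowest was its paralog Gramd1b, with 43 and 26 reads, at -0.62 (-1.39 to 0.11). Exons of both overlap those of other annotated genes.

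Fatty acid synthesis genes, the SREBP-1 side of the program, had a median of -0.06 over 16 genes, with 6 higher and 10 lower. Their summed reads were 10855 and 12383, a log2 fold change of 0.29 (0.25 to 0.33), or 0.08 with total-read scaling. Above 1 were 2 of 16 genes, beside 5.54% of all genes, and 0 were below -1, beside 5.86%. Lpin1, a phosphatidate phosphatase, had 1237 and 2501 reads, at 1.12 (1.02 to 1.22). Mid1ip1, a regulator of acetyl-CoA carboxylase, had 238 and 468 reads, at 1.08 (0.85 to 1.31). With total-read scaling both were below 1, at 0.91 and 0.87. The lowest was Scd1, stearoyl-CoA desaturase, with 1234 reads in the control and 587 in the depolarized library, at -0.97 (-1.11 to -0.83), or -1.18 with total-read scaling. Adipocytes express Scd1 strongly, and 5 of 7 measured adipocyte markers had intervals below 0 (20.3% of all genes), with Plin1 at -2.39, Cfd at -1.07 and Adipoq at -1.04, while Lep had 1 and 9 reads. Their part in the value of Scd1 was not tested.

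**Figure D5:**
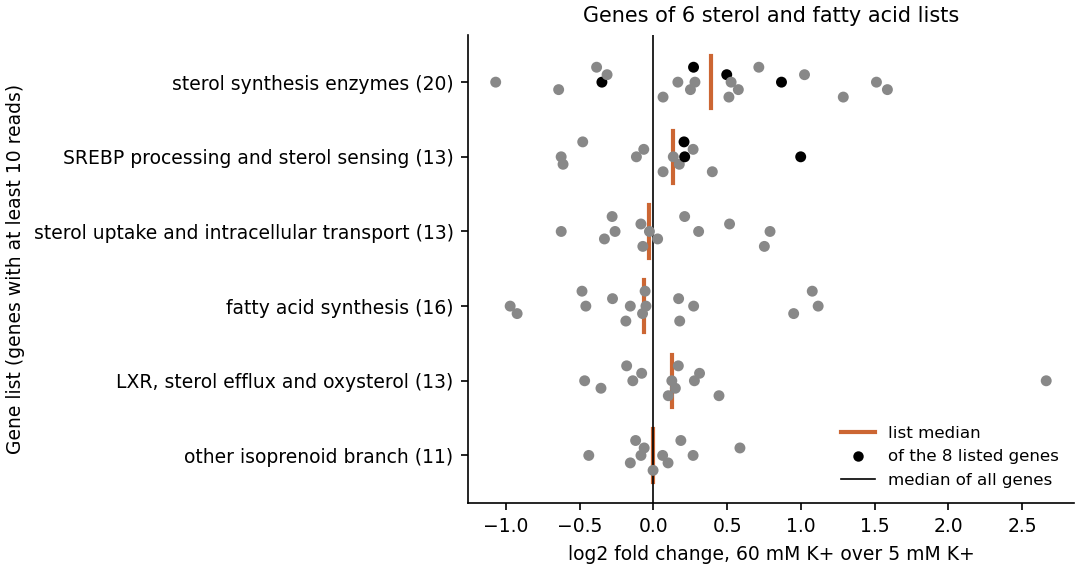
The log2 fold change (60 mM K+ over 5 mM K+, TMM scaling) of single genes in 6 lists of sterol and fatty acid genes with at least 10 reads; black points are genes of the list of 8, orange bars are list medians and the vertical line is the median of all genes. The sterol synthesis enzymes have the highest list median, 0.39, and the 2 genes farthest apart are Fdps at -1.07 and Ch25h at 2.66.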

How the data were processed

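RNA was sequenced by the study from poly(A) libraries. Its methods state alignment with TopHat2 to mm9, and the submitters' processing notes name TopHat2 2.0.12, HTSeq 0.6.1 and edgeR 3.0.8. The gene annotation and the strand setting were not given in the sources used here. The authors deposited raw read counts per Ensembl gene and FPKM values, and the deposited FPKM were scaled by total reads (ratio 1.08).

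Symbols and positions came from GENCODE vM1 (mm9), which lists 32601 of the 55573 genes, and RefSeq synonyms. TMM factors (edgeR 4.0.16, R 4.3.3) gave effective sizes of 11266853 and 10502077 reads, and scipy 1.17.1 the intervals, whose routine was tested on simulated data. A count of 0 entered as 0.5 reads. The DEGSeq q-value of the study was not recomputed, since with 1 library a group it would hold counting error only. The study called genes by a q-value threshold as well as by fold. Of the sterol and fatty acid genes named here above 1, the study listed only Lpin1 as up-regulated.

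Named genes were the 8 listed, Scap and Insig2, in each list those past a log2 fold change of 1 in either direction with the highest and the lowest, and cell type markers. A few genes that the rule also names are not reported here. Genes and lists were chosen with earlier results of these data known. Alternatives were scaling by total reads, by the upper quartile or by DESeq2's (1.42.0) median of ratios, FPKM with pseudocounts of 0.1 and 1, no minimum or 50 reads, the nearest interval end, 1.5-fold, a promoter window of 150 bases and, chosen after seeing the data, exon length and summed reads without 1 gene or with total reads. Figures were drawn with matplotlib 3.10.9.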

Additional observations from a re-analysis of the deposited data

How the results depend on the processing

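No paired analysis was possible because there was a single library a condition, and for the same reason no replicate could be left out. Counting error limits the genes with few reads most, such as Sqle with 151 and 170 reads, and differences between animals cannot be seen at all. Of 35 values of the 7 genes under other scalings and FPKM, 26 stayed inside their counting interval and 9 did not. These 9 were Insig1 at 0.79 with total reads, 0.79 with FPKM plus 0.1 and 0.75 with FPKM plus 1, Srebf1 at -0.00073, -0.00073 and -0.00071, and Srebf2 at 0.0037, 0.0037 and 0.0036, in the same order. The values with total reads differ from the main ones by the shift of 0.21 by construction, and FPKM carry the same scaling together with a pseudocount. The count of listed genes above the threshold was 0 under each alternative other than a 1.5-fold size, where it was 2, and the count below it was 0 throughout.

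With total reads, FPKM plus 0.1 and FPKM plus 1, the median was -0.0735, -0.0721 and -0.0616 for SREBP processing, -0.273, -0.272 and -0.250 for fatty acid synthesis, and -0.211, -0.210 and -0.207 for the other isoprenoid genes. For sterol uptake it was -0.235 with total reads and -0.234 with FPKM plus 0.1. The medians of the 7 genes and of the sterol enzymes stayed above 0 under every alternative, from 0.054 to 0.27 and from 0.16 to 0.50. With all exons as length, Insig2 over Insig1 went from 4.54 to 1.57 in the control and from 2.74 to 0.95 in the depolarized library, so that their order turned there. With the shorter promoter window, the CRE core was in 1 of 6 genes in place of 3 and the NF-Y box in 5 in place of 6. The summed value of the enzymes from squalene onward, 0.19, was -0.018 with total reads, a scaling chosen for the sums after seeing the data, as was leaving out Pmvk or Lbr.

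The 4 sterol enzymes above 1 were 3 with total reads, the upper quartile or FPKM plus 0.1, and 2 with FPKM plus 1 or when the nearest interval end had to pass. Fdps, below -1, left the count with a minimum of 50 reads, with FPKM plus 1 and with the interval end. The 2 fatty acid genes above 1 were 0 with total reads and both FPKM settings and 1 with the interval end, and those below -1 went from 0 to 2 with total reads and FPKM plus 0.1 and to 1 with FPKM plus 1 and the upper quartile. At 1.5-fold (11.9% of all genes higher and 13.1% lower), 6 sterol enzymes, 1 gene of SREBP processing, 2 of sterol uptake, 3 of fatty acid synthesis and 1 of the isoprenoid branch were higher, and 2, 2, 1, 2 and 0 were lower.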

Other observations

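Genes of sterol efflux and oxysterol formation, many of them targets of the liver X receptors that sense oxysterols, were measured for 13 of 13 symbols and had a median log2 fold change of 0.13, or -0.08 with total reads. Above 1 was 1 of 13 genes, beside 5.54% of all genes. Ch25h, which encodes cholesterol 25-hydroxylase, had 41 control reads and 242 depolarized reads, or 3.64 and 23.0 CPM. Its log2 fold change was 2.66 (2.18 to 3.18), or 2.45 with total reads. The enzyme makes 25-hydroxycholesterol, which is known to bind the INSIG proteins. Exons of Ch25h overlap those of Gm16704 in the annotation. Abca1, the cholesterol exporter, had 315 and 259 reads, at -0.18 (-0.42 to 0.06), and the lowest of the list was Abcg1 with 40 and 27 reads, at -0.47 (-1.23 to 0.27). Abca1 was named after its value was seen.

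The branch that leads from the isoprenoid units to dolichol, ubiquinone and prenylated proteins had a median of -0.0019 over 11 genes. In this branch 0 were above 1 or below -1 (5.54% and 5.86% of all genes). Its values ran from -0.44 for Fntb, a farnesyltransferase subunit, to 0.59 for Pdss1, an enzyme of the ubiquinone side chain.

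Mvk starts 210 bases from Mmab, a gene of vitamin B12 metabolism on the opposite strand. Mmab had 155 and 178 reads, a log2 fold change of 0.30 (-0.02 to 0.62), compared with 1.59 for Mvk, so that the counting intervals of this divergent pair did not overlap. Mmab was examined after the value of Mvk was seen, and why they differ was not tested.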
